A study of Mus musculus with 14 samples.

Results

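Ventilated lungs labelled VILI PBEF+/- were compared with ventilated lungs labelled VALI, on 7 of the 14 Affymetrix arrays of a mouse lung series. Both groups were taken by array title alone. They hold 3 VILI PBEF+/- arrays, from mice aged 8-12 weeks, and 4 VALI arrays, from mice aged 18-22 weeks. Both were ventilated for 4 hours at 40 ml/kg tidal volume by the sample labels, whereas the series text names 30 ml/kg. The other 7 arrays, all from mice aged 18-22 weeks, serve as context: 3 labelled PBEF+/- were not ventilated, and 4 labelled Control received PBS. The series title names recombinant human soluble PBEF as a treatment, and its design text places that protein in the trachea, but the labels do not say whether PBEF+/- marks a heterozygous genotype or the protein given. Age and group cannot be told apart, because every VILI PBEF+/- array carries the younger age and every VALI array the older one. The labels give no strain and do not state that each array is a separate animal, and the p-values therefore reflect only sample-to-sample spread, which may be technical.

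Pre-B-cell colony-enhancing factor (PBEF) is the protein product of Nampt. It sets the pace of NAD recycling from nicotinamide and is also found outside cells, where it acts as a cytokine-like factor. Ventilation with large breaths stretches alveolar epithelium and endothelium. Stretched lungs are known to switch on immediate early transcription factors and then cytokines and chemokines that draw in neutrophils and monocytes, with vascular leak as the main injury. Values are log2 expression levels as deposited, and each difference is VILI PBEF+/- minus VALI with the standard error of the limma model. The surfactant gene Sftpc, which defines alveolar type II cells, read 15.38, 15.47 and 15.47 in the VILI PBEF+/- arrays, against 15.48, 15.45, 15.58 and 15.47 in the VALI arrays, levels near the top of the scale in every array.

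Single arrays went against their labels. The cytokine gene Il6 read 12.75, 12.33 and 10.32 in VILI PBEF+/- lungs, against 9.60, 9.84, 9.85 and 2.78 in VALI lungs, and VALI replicate 4 thus lay near the Control range of 2.09 to 2.45. PBEF+/- replicate 3, labelled as not ventilated, read 10.87 for Il6, against 2.10 and 2.56 in the other 2 PBEF+/- arrays. VALI replicate 4 was also the only male-pattern array of the 7, with the X-inactivation transcript Xist at 2.64 there and at 13.44 to 13.88 in the other 6, and the Y-linked Eif2s3y at 10.95 there and at 3.08 to 3.28 in the others. Over all genes tested, VALI replicate 4 correlated at 0.947 on average with the other VALI arrays and at 0.964 with the Control arrays. PBEF+/- replicate 3 enters the comparison only through the spread shared by the 4 groups. Each result is given as labelled and, where it moves, without VALI replicate 4, and counts are also given without PBEF+/- replicate 3. These choices were made with the arrays' values known.

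A pair of neighbouring genes on chromosome 11 divided the arrays in a way the labels do not. BC018473 read 2.55, 2.57 and 11.04 in VILI PBEF+/- lungs, against 9.59, 9.84, 10.60 and 9.59 in VALI lungs. St6galnac1, a sialyltransferase, read 2.09, 2.22 and 7.93 in VILI PBEF+/- lungs, against 6.98, 7.29, 6.80 and 6.94 in VALI lungs. In both, VILI PBEF+/- replicate 3 stood with the VALI arrays, and PBEF+/- replicate 3 stood low, at 2.03 for BC018473, where its group mates read 9.51 and 8.30. All 4 Control arrays were low, at 2.08 to 2.49 for BC018473. VILI PBEF+/- replicate 3 was therefore left out in turn as well, and list medians without it are given where they move by over 1.5 times and are not near 0. These genes were chosen after their values were seen.

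**Figure D1:**
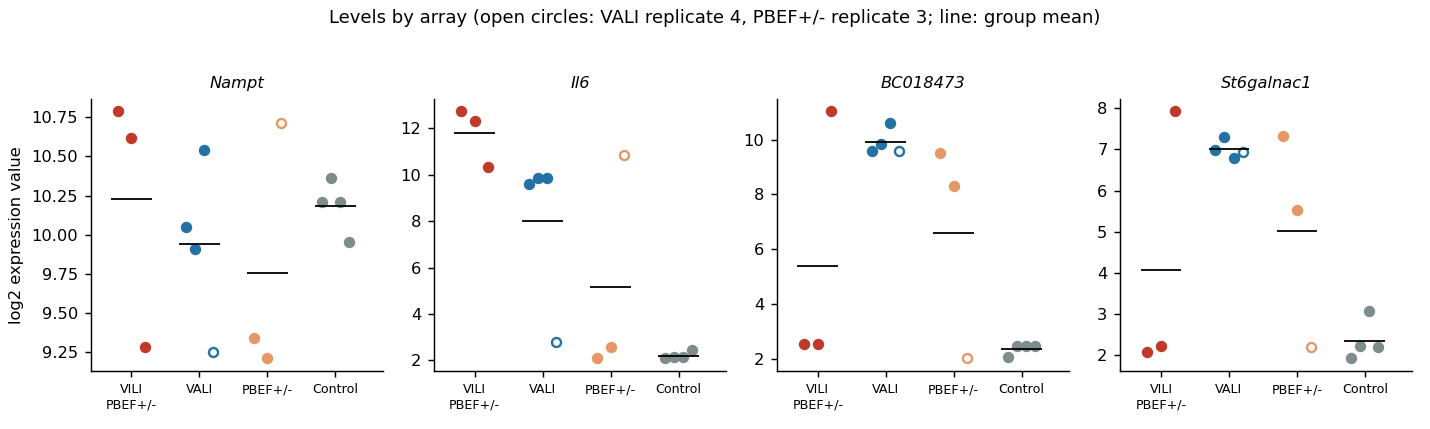
Log2 expression value (vertical axis) of Nampt, Il6, BC018473 and St6galnac1 in every array of the 4 groups, with group means as lines; open circles are VALI replicate 4 and PBEF+/- replicate 3. VALI replicate 4 reads 2.78 for Il6 beside 9.60 to 9.85 in the other VALI arrays, and VILI PBEF+/- replicate 3 reads 11.04 for BC018473 beside 2.55 and 2.57 in its group mates.

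As labelled, limma called 0 of 11360 genes at an adjusted p under 0.05 (0.0% of genes tested), and the smallest adjusted p was 0.109. At an unadjusted p under 0.05 there were 1191 genes (10.5% of genes tested), 386 of them higher (3.4%) and 805 lower (7.09%) in VILI PBEF+/-. The 2 groups did not overlap in 531 genes that were higher in VILI PBEF+/- (4.67% of genes tested) and in 1162 that were lower (10.2%). Without VALI replicate 4, limma again called 0 genes, the smallest adjusted p was 0.183, and 579 genes (5.1%) had an unadjusted p under 0.05, with 218 higher (1.92%) and 361 lower (3.18%). In that setting the groups did not overlap in 680 genes that were higher (5.99%) and in 1358 that were lower (12.0%). The median difference over all genes tested was -0.077 as labelled and -0.048 without VALI replicate 4.

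With PBEF+/- replicate 3 left out of the fit, which alters the shared spread and neither group mean, 9 genes were called (0.0792% of genes tested), all higher in VILI PBEF+/-. They were the monocyte chemokines Ccl2 and Ccl7, the macrophage growth factor Csf1, the immediate early factors Fos and Fosb, the matricellular Ccn1, the phosphatase Dusp5, the G-protein regulator Rgs16 and the lipid-modifying enzyme Lcat. Their adjusted p ranged between 0.0184 and 0.0445. With VALI replicate 4 also left out, 13 genes were called (0.114%), all higher, with Lcat no longer among them and with the growth factor Ereg, the stress gene Gadd45a, the small GTPase Gem, the stress-responsive Phlda1 and the matricellular Thbs1 added. Without VILI PBEF+/- replicate 3, 9 genes were called in the fit with the other 13 arrays. Of these, Ccl2, Ccl7, Cxcl10, Saa2, Tfpi2, Tgif2, Tnfaip3 and Tnip1 were higher and Zfp157 was lower. Ccl7 and Lcat exceeded the array median in 4 of the 14 arrays and Saa2 in 3, the fewest the filter admits. Their VALI means of 3.18, 4.0 and 4.44 lay under every array median. Such genes can enter the test through the arrays where they are high, which limits what their calls mean. Array weights estimated by limma gave VILI PBEF+/- replicate 1 a weight of 8.72 and VALI replicate 4 one of 0.269. With them, 1711 of 11360 genes were called, 646 higher and 1065 lower.

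Rgs16, which shortens signals from G-protein-coupled receptors, had the smallest p as labelled. It read 7.73, 6.84 and 7.03 in VILI PBEF+/- lungs, against 5.29, 4.64, 4.82 and 4.10 in VALI lungs, and the groups did not overlap. The difference was 2.49 ± 0.37 (adjusted p = 0.109), a 5.61-fold higher level, and it was 2.28 without VALI replicate 4. Csf1, which keeps macrophages alive, read 10.36, 10.39 and 10.14 in VILI PBEF+/- lungs, against 9.35, 9.02, 9.59 and 9.65 in VALI lungs. Its difference of 0.89 ± 0.14 (adjusted p = 0.109) came with a tight VILI PBEF+/- group and was 0.98 without VALI replicate 4. The other Csf1 probe sets differed by 1.04, 0.10 and 0.05, the last above the array median in 0 arrays. Zfp46, a zinc-finger protein, read 11.97, 11.78 and 11.72 in VILI PBEF+/- lungs, against 11, 10.87, 11.41 and 10.87 in VALI lungs, a difference of 0.78 ± 0.13 (adjusted p = 0.109).

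Ccl2, the chemokine that recruits CCR2-bearing monocytes, had the largest difference of these genes. It read 10.94, 10.65 and 8.08 in VILI PBEF+/- lungs, against 5.16, 4.54, 5.67 and 3.67 in VALI lungs. The groups did not overlap, with a difference of 5.13 ± 0.84 (adjusted p = 0.109), or 35.1-fold, and 4.77 without VALI replicate 4. Ccl7, a neighbouring chemokine gene with the same receptor, read 6.93, 7.55 and 5.12 in VILI PBEF+/- lungs, against 2.96, 2.90, 3.99 and 2.85 in VALI lungs, a difference of 3.36 ± 0.58 (adjusted p = 0.109). All 4 VALI values of Ccl7 lay below the array medians of 4.602 to 4.749, and the difference was 1.85 when values under the median were raised to it. In both chemokines VILI PBEF+/- replicate 3 was the lowest of its group and still above every VALI array.

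The 5 genes with the smallest p among those lower in VILI PBEF+/- differed by less than 1 log2 unit. H1f2, a linker histone, read 11.71, 11.79 and 11.74 in VILI PBEF+/- lungs, against 12.24, 12.19, 12.15 and 12.38 in VALI lungs, a difference of -0.50 ± 0.08 (adjusted p = 0.109). The transcript 9530082P21Rik read 6.58, 6.51 and 6.69 in VILI PBEF+/- lungs, against 7.37, 7.44, 7.32 and 7.72 in VALI lungs, a difference of -0.87 ± 0.15 (adjusted p = 0.109). Gsta4, a glutathione transferase that clears lipid peroxidation products, read 10.80, 10.76 and 10.47 in VILI PBEF+/- lungs, against 11.64, 11.28, 11.25 and 11.78 in VALI lungs. The carbonyl reductase Cbr3 read 9.41, 9.31 and 9.49 in VILI PBEF+/- lungs, against 10.49, 10.35, 10.12 and 10.07 in VALI lungs. The differences were -0.81 ± 0.15 for Gsta4 (adjusted p = 0.178), -0.85 ± 0.16 for Cbr3 and -0.84 ± 0.16 for E130311K13Rik (adjusted p = 0.185 each). All 10 leading genes kept both groups apart, and leaving out VALI replicate 4 moved none of their differences by over 1.5 times. They were picked by p in the fit that holds that array, and 4966 of all 11360 genes stayed within 1.5 times.

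**Figure D2:**
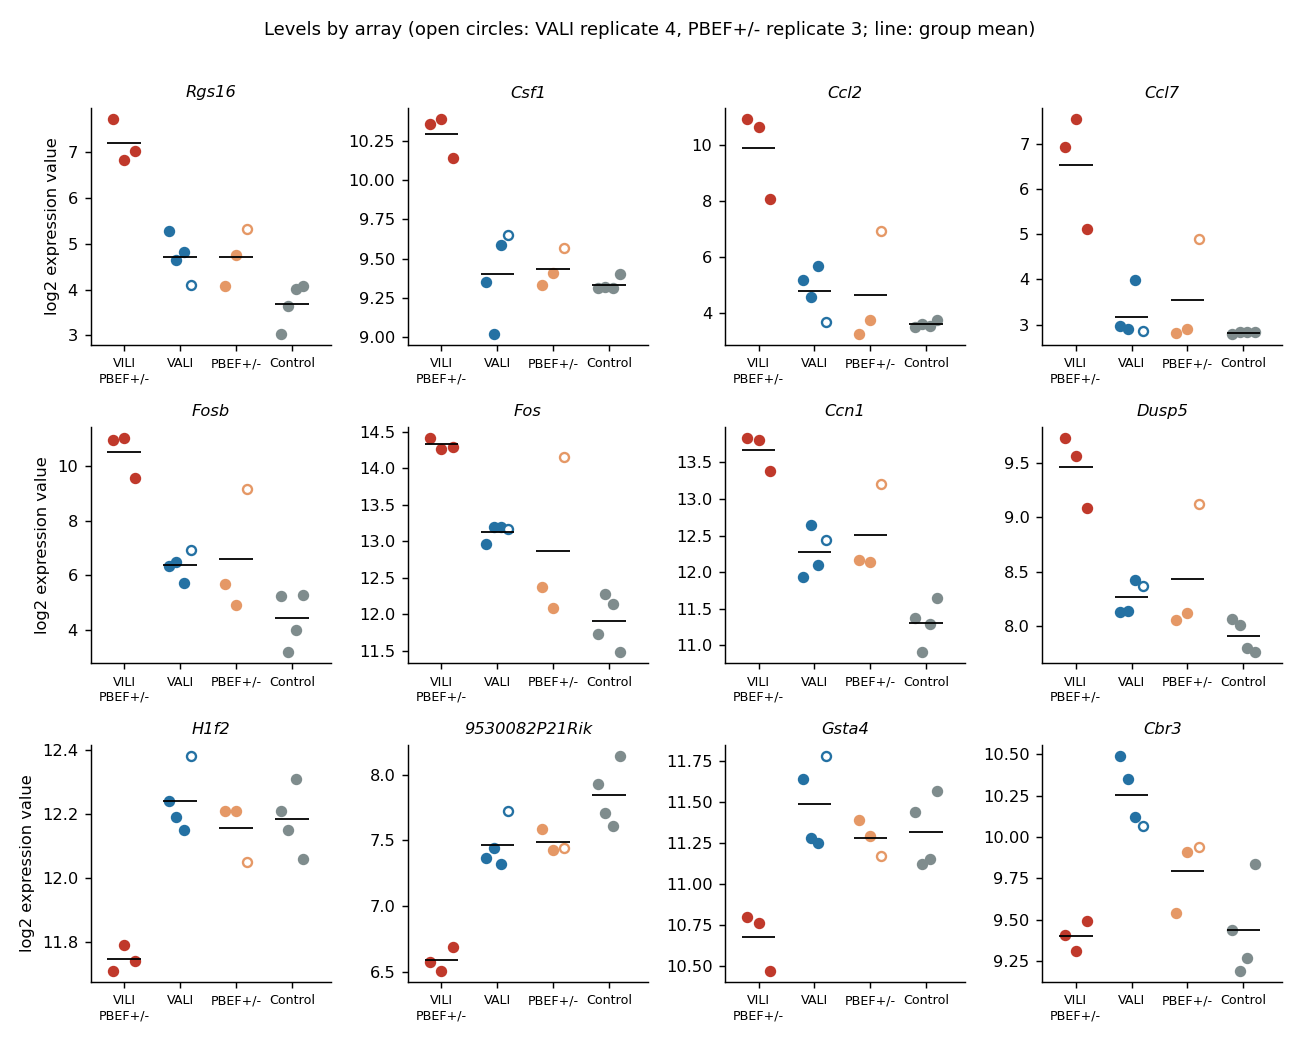
Log2 expression value (vertical axis) of 12 genes in every array of the 4 groups, with group means as lines; open circles are VALI replicate 4 and PBEF+/- replicate 3. In all 12 genes the 3 VILI PBEF+/- arrays lie wholly above or wholly below the 4 VALI arrays, and PBEF+/- replicate 3 stands above its 2 group mates for Ccl2, Ccl7, Fosb, Fos, Ccn1 and Dusp5.

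Nampt read 10.79, 10.62 and 9.28 in VILI PBEF+/- lungs, against 10.05, 9.91, 10.54 and 9.25 in VALI lungs. The groups overlapped, with VILI PBEF+/- replicate 3 beside the lowest VALI array. The difference was 0.29 ± 0.41 (adjusted p = 0.801), and 0.06 without VALI replicate 4. The other Nampt probe sets differed by 0.44 and 0.60. A probe for mouse Nampt says nothing of a human protein given to the lung. Of the 12 tested members of the NAD metabolism list, 2 were higher (3.4% of all genes) and 2 lower (7.09%) at an unadjusted p under 0.05, and 0 were called. Without VALI replicate 4, 1 was higher (1.92% of all genes) and 0 were lower (3.18%) at that level. The NAD-dependent deacetylase Sirt1 read 10.65, 10.82 and 10.67 in VILI PBEF+/- lungs, against 10.32, 10.42, 10.29 and 10.23 in VALI lungs, a difference of 0.40 ± 0.13 (adjusted p = 0.426). Nnmt, which methylates nicotinamide, differed by 0.67, Naprt, which makes NAD from nicotinic acid, by -0.63, and the NAD-consuming Parp1 by -0.36.

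Cytokines and chemokines stood highest of the lists. All 12 tested members had a higher mean in VILI PBEF+/-, 9 of the 12 had an unadjusted p under 0.05, 9 did not overlap between the groups, and 0 were called. The background is 3.4% of genes for the count by p and 4.67% for the count without overlap. The list has 19 entries, and Il1a, Tnf, Ccl4, Csf3, Il11, Osm and Ccl20 were measured but did not pass the filter. Ccl7 passed with 4 arrays above the array median. Such members can enter through the arrays where they are high, so these counts are partly set by the filter. The median difference was 2.58 as labelled, against -0.077 over all genes tested, and it was 2.14 without VALI replicate 4, where 8 members had an unadjusted p under 0.05, beside 1.92% of genes. The mean level of the 12 was 9.90, 9.38 and 7.87 in the VILI PBEF+/- arrays and 6.37, 6.51, 7.44 and 5.07 in the VALI arrays. VILI PBEF+/- replicate 3 was the lowest of its group, and without it the list's median difference was 3.32.

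The neutrophil chemokines came next to the monocyte chemokines. Cxcl1 read 12.09, 11.26 and 10.03 in VILI PBEF+/- lungs, against 8.24, 7.92, 9.55 and 7.18 in VALI lungs, a difference of 2.91 ± 0.85. Cxcl2 read 11.11, 10.37 and 8.82 in VILI PBEF+/- lungs, against 7.18, 7.58, 8.37 and 5.23 in VALI lungs, a difference of 3.01 ± 1.19 (adjusted p = 0.445). Both kept the groups apart, by a narrow margin between VILI PBEF+/- replicate 3 and VALI replicate 3. Cxcl3, another ligand of the neutrophil receptor CXCR2, overlapped, with 9.43, 7.90 and 6.25 in VILI PBEF+/- lungs, against 5.18, 4.54, 7.45 and 6.07 in VALI lungs. Cxcl5, made mostly by epithelium, overlapped as well, and its difference was 1.02 as labelled and 0.31 without VALI replicate 4.

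Ccl3, a chemokine for macrophages, read 8.5, 7.49 and 7.12 in VILI PBEF+/- lungs, against 3.0, 5.54, 5.61 and 3.26 in VALI lungs, a difference of 3.35 ± 1.02. Cxcl10, an interferon-inducible chemokine for T cells, read 10.36, 9.76 and 7.27 in VILI PBEF+/- lungs, against 7.18, 6.66, 7.09 and 6.55 in VALI lungs, a difference of 2.26 ± 0.60 (adjusted p = 0.364). In Cxcl10 VILI PBEF+/- replicate 3 lay only just above the VALI arrays. Lif, a cytokine of the interleukin-6 family, differed by 2.15, the granulocyte-macrophage factor Csf2 by 1.82 and Il1b, the precursor of interleukin-1 beta, by 1.59.

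The difference of Il6 moved with VALI replicate 4 by more log2 units than that of any other tested member of the cytokine and chemokine list. It was 3.78 ± 2.01 (adjusted p = 0.509) as labelled and 2.04 ± 1.71 (adjusted p = 0.999) without that array. The shared spread also holds PBEF+/- replicate 3, which stood far above its group mates for Il6. The 3 VILI PBEF+/- arrays remained above the other 3 VALI arrays. In the list, 9 members moved by at most 1.5 times when VALI replicate 4 was left out, beside 4966 of all 11360 genes. Cxcl5, Il1b and Il6 were larger with that array.

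**Figure D3:**
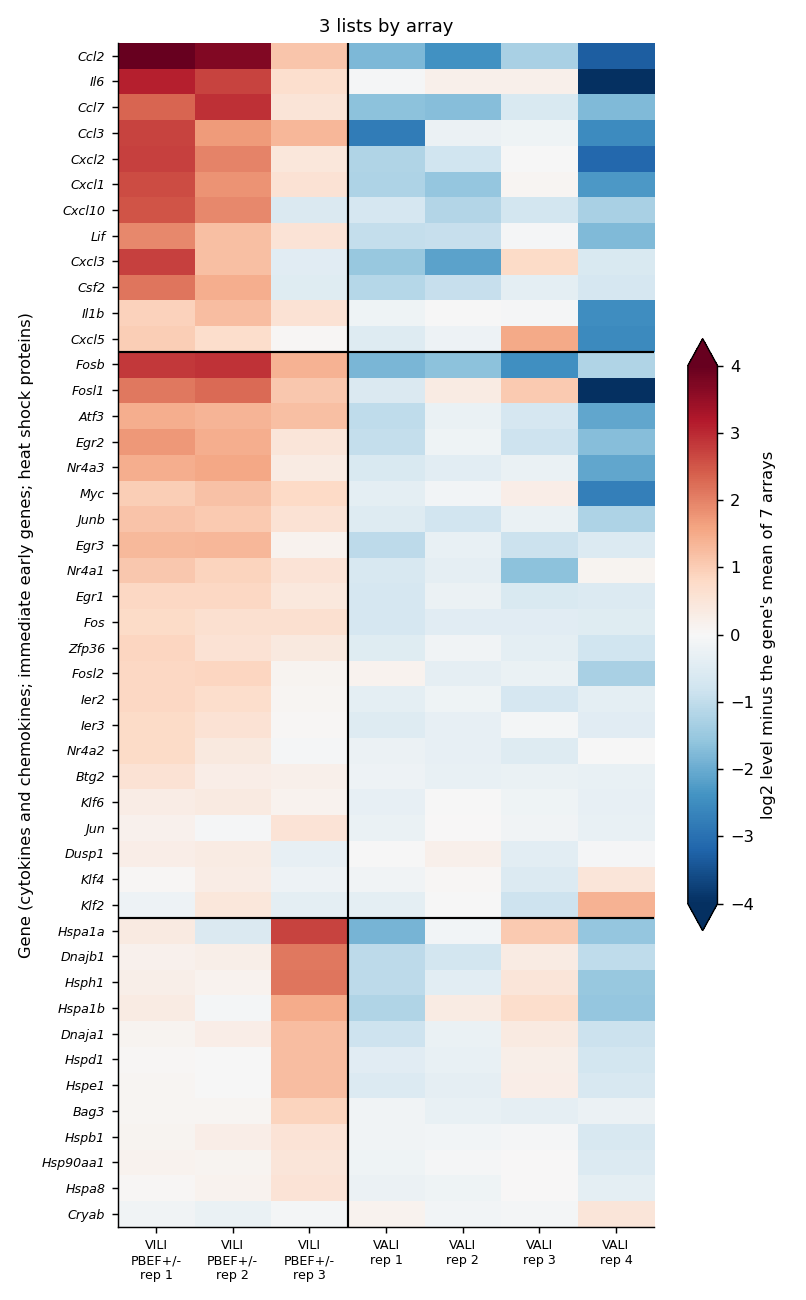
Log2 level of each member of 3 lists minus its mean over the 7 arrays, as colour from blue (lower) to red (higher), with the 3 VILI PBEF+/- arrays left of the 4 VALI arrays and lines between lists. Most cytokines, chemokines and immediate early genes are red in VILI PBEF+/- replicates 1 and 2 and paler in replicate 3. Exceptions include Jun, highest in VILI PBEF+/- replicate 3, and Klf2, highest in VALI replicate 4. Most heat shock proteins are reddest in VILI PBEF+/- replicate 3.

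Immediate early genes, which respond to stretch and growth signals without new protein synthesis, followed the chemokines. Of 22 tested, 21 had a higher mean in VILI PBEF+/-, 15 were higher at an unadjusted p under 0.05 (3.4% of all genes), 0 were lower at that level, 16 did not overlap (4.67% of all genes) and 0 were called. The median difference was 1.12 as labelled and 1.0 without VALI replicate 4, where 12 members were higher at that level (1.92% of all genes). The list's mean level was 12.60, 12.57 and 12.03 in the VILI PBEF+/- arrays and 11.12, 11.39, 11.16 and 10.71 in the VALI arrays, with no overlap. PBEF+/- replicate 3 stood at 11.97, above every VALI array.

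Fosb, a partner of Jun proteins in the AP-1 factor, had the largest difference of the list. It read 10.97, 11.05 and 9.55 in VILI PBEF+/- lungs, against 6.33, 6.49, 5.70 and 6.93 in VALI lungs. The difference was 4.16 ± 0.85 (adjusted p = 0.196), 17.9-fold, and 4.35 without VALI replicate 4. Fos read 14.42, 14.27 and 14.29 in VILI PBEF+/- lungs, against 12.96, 13.19, 13.20 and 13.17 in VALI lungs. Its difference of 1.19 ± 0.37 (adjusted p = 0.407) stood beside a shared spread that holds PBEF+/- replicate 3 at 14.15 with its group mates at 12.37 and 12.09. In a fit of the 7 arrays alone Fos was the only gene called, with a standard error of 0.08 (adjusted p = 0.00996).

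The early growth response factor Egr2 read 12.60, 12.32 and 11.35 in VILI PBEF+/- lungs, against 9.90, 10.69, 10.04 and 9.18 in VALI lungs, a difference of 2.14 ± 0.55 (adjusted p = 0.358). The orphan nuclear receptor Nr4a3 read 10.93, 11.04 and 9.82 in VILI PBEF+/- lungs, against 8.88, 9.06, 9.21 and 7.41 in VALI lungs, a difference of 1.96 ± 0.47 (adjusted p = 0.33). Atf3, a repressor induced by stress, read 12.33, 12.22 and 12.06 in VILI PBEF+/- lungs, against 9.86, 10.60, 10.18 and 8.80 in VALI lungs, a difference of 2.34 ± 0.66. These 3 genes kept the groups apart with and without VALI replicate 4.

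Other immediate early genes had small differences. Klf2 and Klf4, factors of quiescent endothelium, differed by -0.08 and 0.08 as labelled and by 0.37 and 0.25 without VALI replicate 4, and Dusp1, a phosphatase of stress kinases, by 0.15. In all 3 the groups overlapped. Fosl1, another AP-1 member, read 10.37, 10.52 and 9.33 in VILI PBEF+/- lungs, against 7.67, 8.58, 9.30 and 2.02 in VALI lungs. Its difference was 3.18 as labelled and 1.56 without VALI replicate 4, and VILI PBEF+/- replicate 3 lay just above VALI replicate 3.

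Dusp5, a nuclear phosphatase that switches off ERK, read 9.73, 9.56 and 9.08 in VILI PBEF+/- lungs, against 8.13, 8.14, 8.42 and 8.37 in VALI lungs, a difference of 1.19 ± 0.24 (adjusted p = 0.195). Dusp5 is outside the lists. The promoters of 4 genes, Dusp5, Fosb, Cxcl1 and Cxcl2, are shown so that letter matches to known motifs can be seen beside the levels. Those of Ccl2 and Ccl7 are not shown here. Each runs 250 bases before to 50 after the RefSeq start site in GRCm38.p6, 5′ to 3′ on the gene's own strand, with matches in capitals. Dusp5 lies at chr19:53528895-53529194 on the + strand, Fosb at chr7:19309996-19310295 on the - strand, Cxcl1 at chr5:90890995-90891294 and Cxcl2 at chr5:90903649-90903948, both on the + strand.
Dusp5: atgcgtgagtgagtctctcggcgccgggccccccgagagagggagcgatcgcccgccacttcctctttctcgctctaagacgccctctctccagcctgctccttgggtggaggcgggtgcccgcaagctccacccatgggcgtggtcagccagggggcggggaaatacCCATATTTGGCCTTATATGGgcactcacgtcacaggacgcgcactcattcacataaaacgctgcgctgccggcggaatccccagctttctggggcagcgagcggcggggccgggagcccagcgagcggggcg
Fosb: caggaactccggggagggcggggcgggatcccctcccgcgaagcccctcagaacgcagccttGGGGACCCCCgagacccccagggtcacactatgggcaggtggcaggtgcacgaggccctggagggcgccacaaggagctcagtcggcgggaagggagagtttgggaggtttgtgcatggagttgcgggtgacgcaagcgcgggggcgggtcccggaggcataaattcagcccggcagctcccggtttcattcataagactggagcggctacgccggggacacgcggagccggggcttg
Cxcl1: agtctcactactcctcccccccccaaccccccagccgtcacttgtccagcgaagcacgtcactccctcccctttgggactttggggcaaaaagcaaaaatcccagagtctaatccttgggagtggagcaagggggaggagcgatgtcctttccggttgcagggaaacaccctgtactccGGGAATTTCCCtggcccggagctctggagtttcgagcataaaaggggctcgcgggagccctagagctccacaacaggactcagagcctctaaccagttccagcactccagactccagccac
Cxcl2: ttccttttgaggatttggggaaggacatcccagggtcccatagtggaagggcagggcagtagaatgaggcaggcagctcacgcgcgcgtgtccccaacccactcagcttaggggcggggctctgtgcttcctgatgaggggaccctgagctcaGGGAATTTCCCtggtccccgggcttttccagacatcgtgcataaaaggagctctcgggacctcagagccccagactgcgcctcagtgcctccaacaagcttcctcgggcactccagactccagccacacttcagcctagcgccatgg
The capitals mark adjoining CArG boxes, the element read by serum response factor, from -82 and -72 in Dusp5, and kB elements, the kind read by NF-kB, from -188 in Fosb, from -71 and -70 (overlapping) in Cxcl1 and from -97 and -96 (overlapping) in Cxcl2. Both strands were searched for 4 motifs, whose shares of 32851 RefSeq promoters of the same length were 7.81% for AP-1 (TGANTCA), 1.79% for CRE (TGACGTCA), 1.63% for the CArG box and 8.46% for the kB element. These shares count promoters, which belong to 27025 genes, whereas the list counts that follow are of genes, so their units differ. Of the 12 cytokines and chemokines, 9 had a promoter in the table, and 6 of these held a kB element: Cxcl1, Cxcl10, Cxcl2, Cxcl3, Il6 and Lif. AP-1 letters were in Cxcl10, Il6 and Lif. Of 17 immediate early genes with a promoter, 6 held a kB element, 2 (Egr2 and Zfp36) a CArG box, 2 (Btg2 and Dusp1) a CRE and 0 the AP-1 letters. These matches describe the letters only, and the genes shown were chosen after their values were seen. Of the 4 motifs, Fosb held only the kB element.

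NF-kB targets, the genes switched on downstream of most inflammatory receptors, had 9 of 12 tested members higher at an unadjusted p under 0.05 (3.4% of all genes), 6 that did not overlap (4.67%), and 0 called. The median difference was 0.99, and 0.91 without VALI replicate 4, where 5 were higher at that level (1.92%). No member moved by over 1.5 times without that array, a limit kept by 4966 of all 11360 genes. Icam1, the endothelial ligand of leukocyte integrins, read 13.96, 14.02 and 13.58 in VILI PBEF+/- lungs, against 13.32, 13.32, 13.54 and 13.25 in VALI lungs, a difference of 0.49 ± 0.12 (adjusted p = 0.358). Vcam1, its counterpart for monocytes and lymphocytes, differed by 0.38 without overlap. Nfkbiz, a nuclear cofactor of NF-kB, read 13.05, 12.62 and 11.68 in VILI PBEF+/- lungs, against 11.17, 11.14, 11.41 and 10.44 in VALI lungs, a difference of 1.41 ± 0.42 (adjusted p = 0.391). The inhibitors behaved unevenly: Tnfaip3, which edits ubiquitin on NF-kB activators, differed by 1.34 with overlap at VILI PBEF+/- replicate 3, and Nfkbia, which holds NF-kB in the cytoplasm, by 0.28.

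Of 17 IL-6 and STAT3 targets, 5 were higher (3.4% of all genes) and 1 lower (7.09%) at an unadjusted p under 0.05, and 9 did not overlap and were higher (4.67%). The median difference was 0.79 as labelled and 0.54 without VALI replicate 4. Without that array 1 of the 17 was higher at that level (1.92% of all genes), and 9 did not overlap and were higher (5.99%). Junb, an AP-1 member, read 12.78, 12.69 and 12.20 in VILI PBEF+/- lungs, against 11.11, 10.88, 11.38 and 10.41 in VALI lungs, a difference of 1.61 ± 0.56 (adjusted p = 0.433). Socs3, the feedback inhibitor of this pathway, read 14.62, 14.73 and 14.10 in VILI PBEF+/- lungs, against 13.35, 13.54, 13.62 and 11.16 in VALI lungs. Its difference was 1.56, and 0.98 without VALI replicate 4. Hp, the haemoglobin scavenger haptoglobin, was lower, with 13.28, 13.28 and 13.16 in VILI PBEF+/- lungs, against 13.44, 13.41, 13.72 and 13.89 in VALI lungs, a difference of -0.37 ± 0.14 (adjusted p = 0.433).

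Stretch and growth factor genes had 5 of 15 tested members higher at an unadjusted p under 0.05 (3.4% of all genes), and 3 without VALI replicate 4 (1.92%). Of them 0 were called. Their median difference was 0.84 as labelled and 0.49 without that array. Ccn1, a matricellular protein induced by mechanical load, read 13.84, 13.81 and 13.38 in VILI PBEF+/- lungs, against 11.93, 12.64, 12.10 and 12.44 in VALI lungs, a difference of 1.4 ± 0.26 (adjusted p = 0.178). Thbs1, which activates TGF-beta, read 13.86, 14.12 and 13.17 in VILI PBEF+/- lungs, against 12.34, 12.33, 11.95 and 10.32 in VALI lungs, a difference of 1.98 ± 0.66 (adjusted p = 0.426). Hbegf, a ligand of the EGF receptor, differed by 1.26 ± 0.42 (adjusted p = 0.426). Ereg, another such ligand, read 10.25, 9.65 and 8.95 in VILI PBEF+/- lungs, against 8.09, 7.93, 7.70 and 4.10 in VALI lungs, and its difference was 2.66 as labelled and 1.71 without VALI replicate 4. Ccn2, a relative of Ccn1, differed by 0.18 only, and the angiogenic and permeability factor Vegfa by -0.10, and by 0.03 without VALI replicate 4.

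Heat shock proteins, chaperones for unfolded proteins, followed another order among the arrays. Of 12 tested, 8 were higher at an unadjusted p under 0.05 (3.4% of all genes), and 4 without VALI replicate 4 (1.92%), with 0 called. Their median difference was 0.74 as labelled and 0.62 without that array. The list's mean level was 13, 12.90 and 14.08 in the VILI PBEF+/- arrays and 12.25, 12.66, 13.12 and 12.11 in the VALI arrays, so the groups overlapped and VILI PBEF+/- replicate 3 stood highest. Without that array the median difference was 0.38 and 1 member was higher at an unadjusted p under 0.05, beside 424 of all 11360 genes. Dnajb1, a cochaperone, read 11.78, 11.84 and 13.72 in VILI PBEF+/- lungs, against 10.56, 10.88, 11.96 and 10.60 in VALI lungs. Hspa8, the constitutive HSC70, read 14.78, 14.86 and 15.28 in VILI PBEF+/- lungs, against 14.51, 14.57, 14.76 and 14.35 in VALI lungs, a difference of 0.43 ± 0.13 (adjusted p = 0.407).

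Neutrophil markers turned on VALI replicate 4. Their mean level was 9.85, 9.71 and 9.55 in the VILI PBEF+/- arrays and 9.28, 10.09, 9.70 and 6.62 in the VALI arrays, against 5.83 to 6.89 in Control. The median difference of the 13 tested members was 1.02 as labelled and 0.04 without VALI replicate 4, and 0 had an unadjusted p under 0.05 in either. In whole lung, fewer cells of a type and less RNA per cell cannot be told apart. The calprotectin subunit S100a8 read 14.48, 14.36 and 14.55 in VILI PBEF+/- lungs, against 14.32, 14.84, 14.51 and 10.45 in VALI lungs. Its difference was 0.94 as labelled and -0.09 without VALI replicate 4, and the sign of S100a9, its partner, turned too. The chemokine receptor Cxcr2 read 9.02, 9.06 and 9.28 in VILI PBEF+/- lungs, against 7.90, 8.38, 9.14 and 5.67 in VALI lungs, and differed by 1.35 and, without VALI replicate 4, by 0.65.

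The medians of the oxidative stress, metal and clotting lists also fell without VALI replicate 4. The 12 NRF2 and oxidative stress targets had a median difference of 0.43 as labelled and 0.06 without VALI replicate 4. As labelled, 1 was higher (3.4% of all genes) and 1 lower (7.09%) at an unadjusted p under 0.05. Without that array 0 were higher (1.92%) and 0 lower (3.18%). The higher one, Osgin1, read 11.06, 11.24 and 11.72 in VILI PBEF+/- lungs, against 9.66, 10.12, 10.72 and 9.09 in VALI lungs. Its groups did not overlap, and it differed by 1.44 ± 0.54 as labelled and by 1.17 without VALI replicate 4. Hmox1, which degrades haem, differed by 1.42 and 0.40 in the same order, and VALI replicate 4 read 7.84 for it, against 11.13 to 12.36 in the other VALI arrays. Nqo1, a quinone reductase of the same programme, went the other way, with 6.11, 5.71 and 5.48 in VILI PBEF+/- lungs, against 7.41, 6.38, 6.44 and 7.78 in VALI lungs, a difference of -1.24 ± 0.49 (adjusted p = 0.445). The metal-binding Mt1 and Mt2 differed by 1.03 and 1.06 as labelled and by 0.43 and 0.33 without VALI replicate 4. F3, the tissue factor that starts clotting, read 13.93, 14.05 and 13.21 in VILI PBEF+/- lungs, against 13.11, 13.56, 13.18 and 10.90 in VALI lungs, and differed by 1.04 and 0.45. The 9 coagulation and fibrinolysis genes had a median of 0.24, and 0.12 without that array.

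Counted over all genes, 539 of the 1191 genes at an unadjusted p under 0.05 as labelled were also among the 579 without VALI replicate 4, which is 45.3% of the first set and 93.1% of the second. A change in p can come from 1 array fewer, so the size of the difference was followed as well. Of the 1191, 1067 moved by at most 1.5 times and 0 turned sign. The other 124 were more than 1.5 times larger with VALI replicate 4 (27 higher and 97 lower in VILI PBEF+/-). Of all 11360 genes tested, 4966 moved by at most 1.5 times, 3681 were larger with that array, 1243 were smaller and 1470 turned sign. The 1191 were picked by p in the fit that holds that array, so their counts are partly fixed by that choice. Of the 313 genes with a difference of at least 1 log2 unit as labelled, 180 moved by at most 1.5 times, 128 were larger with that array, 1 was smaller and 4 turned sign.

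The genes that depended on VALI replicate 4 and were higher in VILI PBEF+/- included Ereg and Socs3, described above, and Mmp19, Noct, Arid5a, Osmr and Serpina3n. Mmp19, a metalloproteinase, read 8.94, 8.91 and 8.30 in VILI PBEF+/- lungs, against 7.60, 7.39, 7.80 and 5.20 in VALI lungs, and differed by 1.73 and, without VALI replicate 4, by 1.13. Noct, nocturnin, an enzyme of the circadian system, differed by 1.57 and 0.92. Osmr, the oncostatin M receptor, read 12.88, 12.84 and 12.66 in VILI PBEF+/- lungs, against 12.09, 12.15, 12.51 and 10.90 in VALI lungs, and differed by 0.88 and 0.54. Beyond that threshold of p, Has1, a hyaluronan synthase, read 10.01, 10.21 and 8.96 in VILI PBEF+/- lungs, against 7.70, 8.03, 7.96 and 2.31 in VALI lungs, and differed by 3.23 and 1.83.

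Genes lower in VILI PBEF+/- that depended on VALI replicate 4 included muscle, lymphocyte and sex-linked genes, chosen after their values were seen. Apobec2, a muscle deaminase, read 4.14, 4.44 and 3.76 in VILI PBEF+/- lungs, against 9.40, 4.25, 4.22 and 10.64 in VALI lungs, and differed by -3.01 and, without VALI replicate 4, by -1.84. The same pair of VALI arrays stood high for all 8 tested skeletal muscle markers, whose mean level was 4.68, 8.05 and 4.36 in the VILI PBEF+/- arrays and 12.71, 4.67, 4.21 and 13.56 in the VALI arrays. Their median difference was -3.47 and -1.75. Of the 12 skeletal muscle entries, 8 passed the filter of at least 3 arrays above the array median. Mylpf, Tnni2 and Tnnt3 passed with exactly 3. Such genes enter through the arrays where they are high, so the count of 8 is partly set by the filter. The 12 heart muscle markers had medians of -0.07 and 0.13, and their mean level was 11.35 in VALI replicate 4, against 10.18 to 10.64 in VILI PBEF+/- and 10.20 to 10.63 in the other VALI arrays. The sign of 6 of them turned without VALI replicate 4, beside 1470 of all 11360 genes. Of the heart muscle markers 0 stayed within 1.5 times, beside 4966 of all genes. Bcl11b, a T cell transcription factor, read 7.56, 7.02 and 6.95 in VILI PBEF+/- lungs, against 8.03, 7.35, 8.10 and 9.24 in VALI lungs, and differed by -1.0 and -0.65. The 11 B cell and plasma cell markers had a median of -0.63 as labelled, -0.09 without VALI replicate 4 and -0.39 without VILI PBEF+/- replicate 3, with 0 of them within 1.5 times, and VALI replicate 4 had the highest list mean, 9.67, against 6.73 to 7.74 in VILI PBEF+/- and 7.0 to 7.87 in the other VALI arrays. The 12 T and NK cell markers had medians of -0.41 and -0.24, and of -0.17 without VILI PBEF+/- replicate 3, and the 4 sex-linked transcripts of -1.13 and 0.06. The part of sex or of muscle RNA in the other genes was not tested beyond these values and the covariate fit for sex pattern, in which 0 genes were called and 1019 had an unadjusted p under 0.05.

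**Figure D4:**
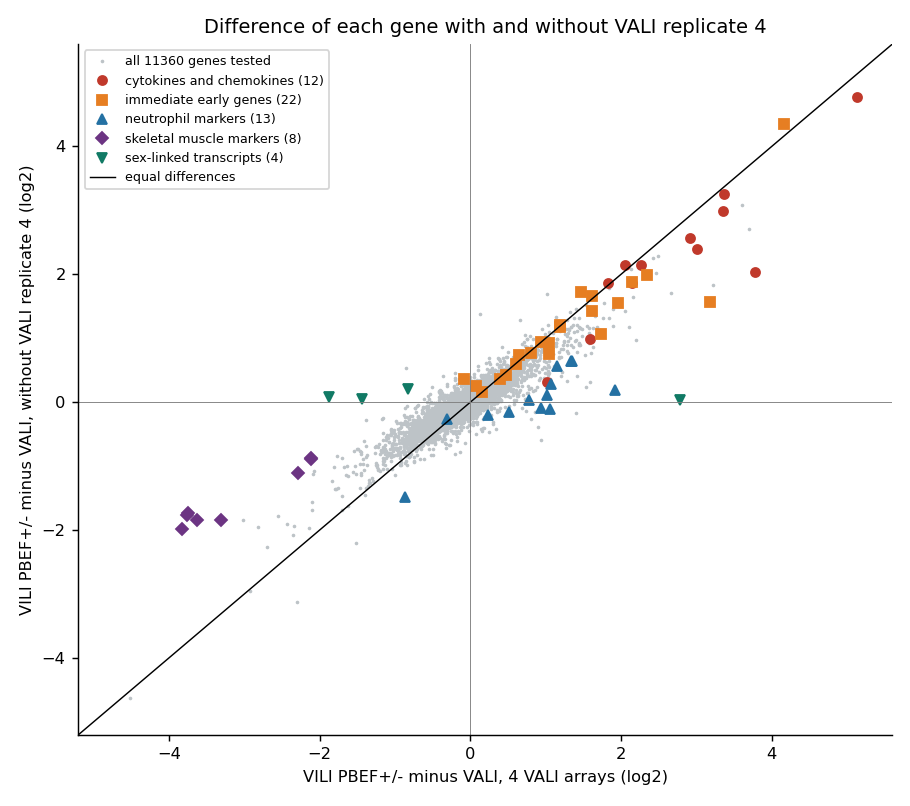
Difference of each of 11360 genes, VILI PBEF+/- minus VALI in log2 units, with all 4 VALI arrays (horizontal axis) and without VALI replicate 4 (vertical axis), where the diagonal marks equal differences. Of the cytokines and chemokines 9 of 12, and of the immediate early genes 18 of 22, lie within 1.5 times of the diagonal. Of all 11360 genes 4966 do, and differences near 0 pass that ratio more easily. The neutrophil markers have a median of 0.04 on the vertical axis (between -1.48 and 0.65) and the skeletal muscle markers one of -1.75.

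Of 10 tested cell cycle genes, 3 were lower at an unadjusted p under 0.05, 0 were called and 5 did not overlap and were lower, beside backgrounds of 7.09% and 10.2%. The median difference was -0.48, against -0.24 without VALI replicate 4, where 2 were lower at that level (3.18% of all genes), and -0.26 without VILI PBEF+/- replicate 3. Rrm2, which supplies deoxynucleotides, read 7.20, 7.05 and 6.58 in VILI PBEF+/- lungs, against 7.24, 7.72, 7.64 and 8.53 in VALI lungs, a difference of -0.84 ± 0.28 (adjusted p = 0.426). Mcm2, a subunit of the replicative helicase, differed by -0.63 and, without that array, by -0.40. The proliferation marker Mki67 differed by -0.80 and -0.49.

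Of 13 club and ciliated cell markers, 3 were lower at an unadjusted p under 0.05, beside 7.09% of all genes, and 0 were called. Without VALI replicate 4, 2 were lower at that level, beside 3.18%. The median difference was -0.31, and -0.20 without that array. Cyp2f2, a cytochrome of club cells, read 13.88, 14.07 and 14 in VILI PBEF+/- lungs, against 14.13, 14.18, 14.31 and 14.69 in VALI lungs, a difference of -0.34 ± 0.13 (adjusted p = 0.433). Of 7 MHC class II genes, which present antigen to helper T cells, 3 were lower at that level and 1 without VALI replicate 4, beside the same shares, and the median was -0.32 and -0.20. H2-Eb1 read 12.26, 12.62 and 12.47 in VILI PBEF+/- lungs, against 12.71, 12.56, 12.81 and 13.16 in VALI lungs, a difference of -0.36 ± 0.12 (adjusted p = 0.433), and the groups overlapped. The 14 macrophage and monocyte markers had medians of -0.33 and -0.31. Csf1r, the receptor for Csf1, read 11.35, 11.21 and 11.34 in VILI PBEF+/- lungs, against 11.42, 11.47, 11.59 and 12.02 in VALI lungs, a difference of -0.33 ± 0.15 (adjusted p = 0.476).

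The remaining lists had few members at an unadjusted p under 0.05. Alveolar type I markers (10 tested) had medians of -0.06 as labelled and -0.01 without VALI replicate 4, alveolar type II markers (13) of -0.06 and -0.10, and endothelial markers (17) of -0.04 and 0.03. Extracellular matrix genes (17) had medians of -0.01 and 0.01, and smooth muscle markers (8) of 0.10 and 0.17. In each of these 5 lists, 0 members had an unadjusted p under 0.05. The unfolded protein and ATF4 list (14) had medians of 0.28 and 0.14, the glucocorticoid response (12) of 0.19 and -0.05, the circadian clock (14) of -0.11 and -0.07, and the interferon-stimulated genes (10) of -0.15 and 0.01, with Cxcl10 higher and Usp18 lower among the last at an unadjusted p under 0.05. Without VILI PBEF+/- replicate 3 the median was 0.05 for the unfolded protein and ATF4 list, 0.40 for the glucocorticoid response and -0.23 for the interferon-stimulated genes. Fat markers (5) had medians of 0.72 and 0.88 (1.3 without VILI PBEF+/- replicate 3), and the metallothionein and zinc genes (4) of 1.03 and 0.38. The red blood cell list had 1 tested member, Alas2, which differed by 0.37, and the thymocyte and the basal and squamous epithelium lists had 0 tested.

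**Figure D5:**
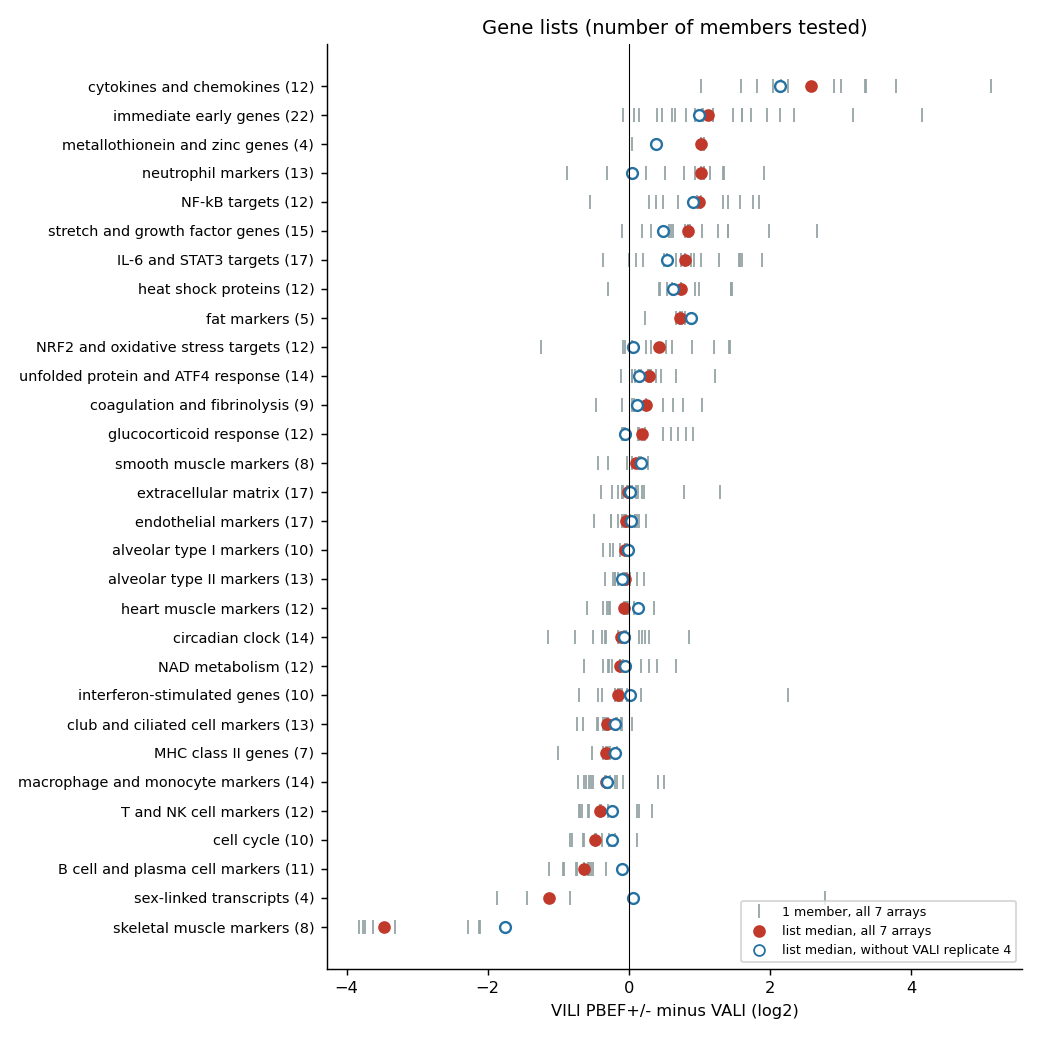
Difference of each tested list member (grey ticks), VILI PBEF+/- minus VALI in log2 units, with the list median over all 7 arrays (filled circles) and without VALI replicate 4 (open circles), for lists with at least 3 tested members. Cytokines and chemokines and immediate early genes keep medians of at least 1.0 either way, and the neutrophil median of 1.02 becomes 0.04 without VALI replicate 4.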

How the data were processed

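Total RNA of mouse lung was extracted with Trizol and 6 µg went into biotinylated cRNA for each Affymetrix array, per the labels' protocols. The deposited values are log2 expression values, 1 per probe set and array (45101 probe sets, 14 arrays). MAS5 and GCRMA are named, with no role given, per the submitters' processing notes. No scaling was added: array medians lay between 4.602 and 4.749. No detection calls were used, and the number of arrays limits the precision.

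Platform annotation gave 1 gene symbol to 34958 probe sets, several to 932 and none to 9211, and those with 1 were used. Each gene was represented by its probe set of highest mean, and a gene was tested when it exceeded the array median in at least 3 arrays (11360 of 18194 genes). limma 3.58.1 (R 4.3.3) fitted the 4 labelled groups over all 14 arrays with a variance trend. P-values were adjusted by Benjamini-Hochberg over all genes tested and called under 0.05. The model was tested on simulated data.

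The members and the 33 gene lists (352 of 427 entries tested) were chosen with earlier results of these data known. The genes named are Nampt, the 5 with the smallest p in each direction, up to 3 per list with the smallest p, and others chosen after their values were seen. Same-numbered arrays did not deviate together (correlations 0.21, -0.074 and 0.232), so arrays were treated as unpaired. The alternatives were the fitted arrays, filters, a floor at the median, probe set averaging, quantile normalization, moderation, array weights, sex pattern, replicate block and left-out arrays. RefSeq promoters came from GRCm38.p6. Figures were drawn with matplotlib 3.10.9.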

Additional observations from a re-analysis of the deposited data

Results flagged for a closer look

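Each of the 159 named genes was checked for a VALI array far from the other 3, by whether Dixon's ratio of the gap to the range passed its critical value for 4 samples. There were 30 such genes, and in 24 of them the array was VALI replicate 4. Chance gives about 1 such array in 20 groups, but many of these genes were named after their values were seen, some for their dependence on VALI replicate 4, so that rate cannot be set against the count.

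VALI replicate 4 was far below the other VALI arrays in genes of inflammation, neutrophils and metal handling. The ratios were 0.966 for Il6, 0.945 for Mt2, 0.916 for Mt1, 0.856 for Slc39a14, a zinc transporter induced by interleukin-6, 0.838 for Trem1, an activating receptor of neutrophils, and 0.865 for Csf3r, the receptor for granulocyte colony-stimulating factor. Csf3r read 10.95, 11.02 and 11.16 in VILI PBEF+/- lungs, against 10.5, 10.94, 10.82 and 7.64 in VALI lungs. Further ratios were 0.883 for S100a8, 0.890 for S100a9, 0.941 for Il1b, 0.890 for Socs3, 0.842 for the acute-phase protease inhibitor Serpina3n, 0.832 for Arid5a, which steadies Il6 mRNA, 0.914 for Noct and 0.842 for Mmp19. The same array was lowest for the clotting genes Fgl2 (0.939) and F3 (0.831), for the growth factor Ereg (0.903), for Has1 (0.942), for the aggrecanase Adamts4 (0.842) and for Atf4, the factor of the amino acid response (0.972). Atf4 read 13.01, 12.91 and 12.90 in VILI PBEF+/- lungs, against 12.54, 12.51, 12.53 and 11.51 in VALI lungs.

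VALI replicate 4 was lowest for Xist (0.961) and highest for the Y-linked Eif2s3y (0.987) and Kdm5d (0.989). It was also highest for the replication gene Mcm2 (0.919), which read 6.98, 6.93 and 6.93 in VILI PBEF+/- lungs, against 7.39, 7.32, 7.34 and 8.27 in VALI lungs.

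In 6 genes another VALI array was far from the rest. VALI replicate 3 was highest for Ccl7 (0.899), Tnip1, a partner of Tnfaip3 (0.913), and Vcam1 (0.846), VALI replicate 1 was lowest for Fos (0.895) and for the ciliary motor gene Dnah5 (0.834), and VALI replicate 2 was lowest for the macrophage elastase Mmp12 (0.856).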

How the results depend on the processing

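As labelled, 0 genes were called, with 1191 at an unadjusted p under 0.05. The count was 1 (Fos) with the 7 arrays alone, 2 (Ccl2 and Rgs16) with values under the array median raised to it, 1711 with array weights, 9 without PBEF+/- replicate 3, and 13 without it and VALI replicate 4. Leaving out each of the 7 arrays gave 0 to 9, with 9 without VILI PBEF+/- replicate 3 and 1 (Zfp46) without VALI replicate 3. Without VALI replicate 4, where 0 were also called, it was 2 with the arrays of both groups alone, 1 with the floor, 1738 with array weights (649 higher and 1089 lower) and 13 without PBEF+/- replicate 3, and 0 when any other of the 6 arrays was left out. The remaining settings called 0 in both, the replicate block included, which left 737 genes at an unadjusted p under 0.05. With no filter, 3055 of 18194 genes reached that level, 2165 higher and 890 lower.

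Of 3166 values of 159 named genes under 20 settings, 3010 kept direction and side of the threshold, 127 became called and 29 reversed, the last in 11 genes. Array weights alone gave 92 of the 127. With probe sets averaged, Fn1 was 0.292, Sftpc 0.003 and Vegfa 0.015, and 6 of the 51 named genes with several probe sets had one of opposite sign. With array weights Cd22 was 0.056, Klf2 0.039 and S100a9 -0.066, and Klf2 was 0.079 with the replicate block. Leaving out each array in turn gave -0.486 (without VILI PBEF+/- replicate 1; -0.465 without VALI replicate 3) to 1.196 for Alas2, -2.541 to 0.081 for Eif2s3y, -1.947 to 0.048 for Kdm5d, -0.361 to 0.367 for Klf2, -0.091 to 0.253 for Klf4, -0.091 to 1.373 for S100a8, -0.1 to 1.547 for S100a9 and -0.181 to 0.034 for Vegfa. For Eif2s3y, Kdm5d, S100a8, S100a9 and Vegfa among these fits the sign turned only without VALI replicate 4. With PBEF+/- replicate 3 also left out, the values were 0.081 for Eif2s3y, 0.048 for Kdm5d, 0.367 for Klf2, -0.091 for S100a8, -0.1 for S100a9 and 0.034 for Vegfa. With sex pattern as a covariate Eif2s3y was 0.053, Kdm5d 0.05, Klf2 0.041 and Vegfa 0.009. Other causes were not tested. Levels near or under the array median, as for Ccl7, limit the fold changes.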

Other observations

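Several genes outside the lists also differed in their means, and are given as values chosen after they were seen. Ccl12, a chemokine gene of the same cluster as Ccl2, read 7.49, 7.70 and 6.23 in VILI PBEF+/- lungs, against 3.83, 4.88, 5.96 and 4.18 in VALI lungs, a difference of 2.43 ± 0.64 (adjusted p = 0.358). Ccl8, another chemokine of that family, went the other way, with 6.33, 6.14 and 4.10 in VILI PBEF+/- lungs, against 7.25, 6.84, 8.71 and 8.71 in VALI lungs, a difference of -2.35 ± 0.68 (adjusted p = 0.388). Tnfsf9, the ligand of the T cell costimulator 4-1BB, read 9.24, 9.55 and 8.26 in VILI PBEF+/- lungs, against 5.57, 5.31, 6.93 and 3.84 in VALI lungs, a difference of 3.6 ± 0.87 (adjusted p = 0.333). Adamts4, which cleaves the proteoglycan aggrecan, read 10.74, 10.60 and 7.84 in VILI PBEF+/- lungs, against 6.72, 6.95, 7.41 and 3.03 in VALI lungs, and differed by 3.7 and, without VALI replicate 4, by 2.70.

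Retnla, a secreted product of alternatively activated macrophages, read 10.81, 11.11 and 10.22 in VILI PBEF+/- lungs, against 12.77, 12.35, 12.05 and 12.47 in VALI lungs, a difference of -1.70 ± 0.54 (adjusted p = 0.423). The aldehyde dehydrogenase Aldh3a1 read 8.35, 8.81 and 7.85 in VILI PBEF+/- lungs, against 11.25, 9.18, 8.97 and 10.78 in VALI lungs, a difference of -1.71 ± 0.47 (adjusted p = 0.386). Mmp12 differed by -2.70 with overlap at VALI replicate 2, and Clca1, a goblet cell gene, by -2.30 as labelled, with overlap at VALI replicate 4, and -3.12 without VALI replicate 4.

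Several developmental and vascular genes had small and tight differences. The morphogen Shh read 8.81, 8.54 and 9.14 in VILI PBEF+/- lungs, against 9.59, 9.31, 9.66 and 9.85 in VALI lungs, a difference of -0.78 ± 0.19 (adjusted p = 0.33). Id3, an inhibitor of helix-loop-helix factors, read 12.67, 12.61 and 12.67 in VILI PBEF+/- lungs, against 11.87, 11.68, 12.12 and 12.39 in VALI lungs, a difference of 0.63 ± 0.15 (adjusted p = 0.273). The endothelial factor Sox7 differed by 0.66 ± 0.14 and the proton-sensing receptor Gpr4 by 0.94 ± 0.20 (adjusted p = 0.221 each).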
